A study of Homo sapiens with 15 samples.

Results

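The genes described here make, bind or sense retinoic acid, and 9 of the 28518 symbols in the deposited count table were followed across 15 RNA-seq libraries of HaCaT keratinocytes. They were the retinaldehyde dehydrogenases ALDH1A1 and ALDH1A3, the retinol and retinal oxidoreductases RDH10, DHRS3 and DHRS9, the carrier CRABP2, and the nuclear receptors RARA, RARG and RXRA. Earlier results of these data were known when the 9 genes were chosen by symbol. ALDH1A1 had been seen to differ strongly between R820W and WT cells, and its levels in those genotypes are the only values recorded for the choice. It is not recorded whether the libraries with mepazine entered that observation. The difference between the genotypes is therefore given as values with no test for each of the 9 genes under vehicle and for ALDH1A1 under mepazine as well.

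HaCaT is an immortalised line of human keratinocytes. The cells were CRISPR-edited at CARD14, the gene of a scaffold protein that signals through the protease MALT1, and each of 5 groups had 3 libraries. The WT group was CARD14 WT/WT and the R820W group was CARD14 R820W/R820W, and both were cultured for 24 h with DMSO as vehicle or with 10 µM mepazine, a MALT1 inhibitor. The KO group was CARD14 KO with vehicle, and knockout cells with mepazine are not analysed here. The labels name no added retinoid, and the medium of every group contained fetal bovine serum. The study describes 3 independent experiments, and each library carries a letter a, b or c. The labels do not give the number of edited clones per genotype, so a difference between genotypes and a difference between clones cannot be told apart.

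Retinol taken up by a cell is oxidised to retinal by short-chain dehydrogenases such as RDH10, and DHRS3 runs this step backwards. The ALDH1A enzymes oxidise retinal irreversibly to retinoic acid, which CRABP2 carries to the nucleus, where it binds heterodimers of a retinoic acid receptor (RARA, RARB or RARG) with a retinoid X receptor such as RXRA. CYP26 enzymes degrade retinoic acid. In the epidermis RARG is the main retinoic acid receptor, and retinoic acid is known to hold back cornification of keratinocytes.

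The libraries held 20630099 to 26974363 counts, and values below are counts per 1000000 counts of the library (CPM), with library sizes scaled by the trimmed mean of M values. The CARD14 symbol had 24 to 43 counts per library in WT with vehicle and 40 to 45 in KO with vehicle (log2 difference 0.21 ± 0.21 SE, adjusted p = 0.886). The labels do not say which sequence was removed, so this count does not check the knockout label. All 10 keratinocyte markers searched were measured, with a summed level of 5744 to 6021 CPM in WT and 4423 to 4745 CPM in R820W libraries with vehicle. Of 6 melanocyte markers, TYR and DCT had 0 counts in every library, and MLANA and PMEL passed the filter on low counts. The summed level of the 6 was 0.809 to 1.88 CPM in WT with vehicle. With mepazine it was 1.59 to 2.12 CPM in WT and 2.001 to 2.603 CPM in R820W. PMEL was then higher in R820W (log2 difference 0.89, adjusted p = 0.0246 by edgeR's quasi-likelihood test). MLANA was not (-0.18, adjusted p = 0.637), and the part of both in the results was not tested. The 5 leukocyte markers, of which only CD14 passed the filter on low counts, summed to 0.598 to 0.738 CPM in WT with mepazine and to 1.81 to 1.89 CPM in R820W with mepazine, the highest of the 5 groups, and their part in the results was not tested. Of 7 fibroblast markers, COL1A1, DCN and LUM passed the filter on low counts. The summed level of the 7 was 2.47 to 2.71 CPM in WT and 5.33 to 11.2 CPM in R820W with vehicle, 3.52 to 5.20 CPM in WT and 23.4 to 33.2 CPM in R820W with mepazine, and 2.44 to 2.94 CPM in KO. The defining fibroblast collagens COL1A2 and COL3A1 had at most 3 counts over the 3 libraries of any group. Of 5 endothelial markers, summed to 4.42 to 6.95 CPM in WT with vehicle and 22.2 to 35.9 CPM in R820W with mepazine, most of the signal was CDH5 (4.84 and 25.8 CPM). These markers rose in the same groups as ALDH1A1, DHRS3, RDH10, RARG and RXRA below, and their part in those results was not tested.

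Adjusted p-values are from edgeR's quasi-likelihood test in 1 fit of all 15 libraries, two-sided, with Benjamini-Hochberg adjustment over the 14971 genes tested, and a gene is called when its adjusted p is under 0.05. Fold changes are on the log2 scale with the standard error (SE), and levels are mean ± SD over 3 libraries. With mepazine in both genotypes, 7 of the 8 genes other than ALDH1A1 differed between R820W and WT, beside 44.9% of all genes tested. ALDH1A3, CRABP2, RDH10, RARG, DHRS3 and RXRA were higher in R820W and RARA was lower. Mepazine itself raised 5 of the 9 genes and lowered RARA in R820W cells, beside 22.1% of all genes higher and 24.8% lower. In WT cells it raised DHRS3 and RDH10, beside 12.4% of all genes higher and 11.6% lower, a count near the background. None of the 9 was called between KO and WT, beside 0.374% of all genes.

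**Figure D1:**
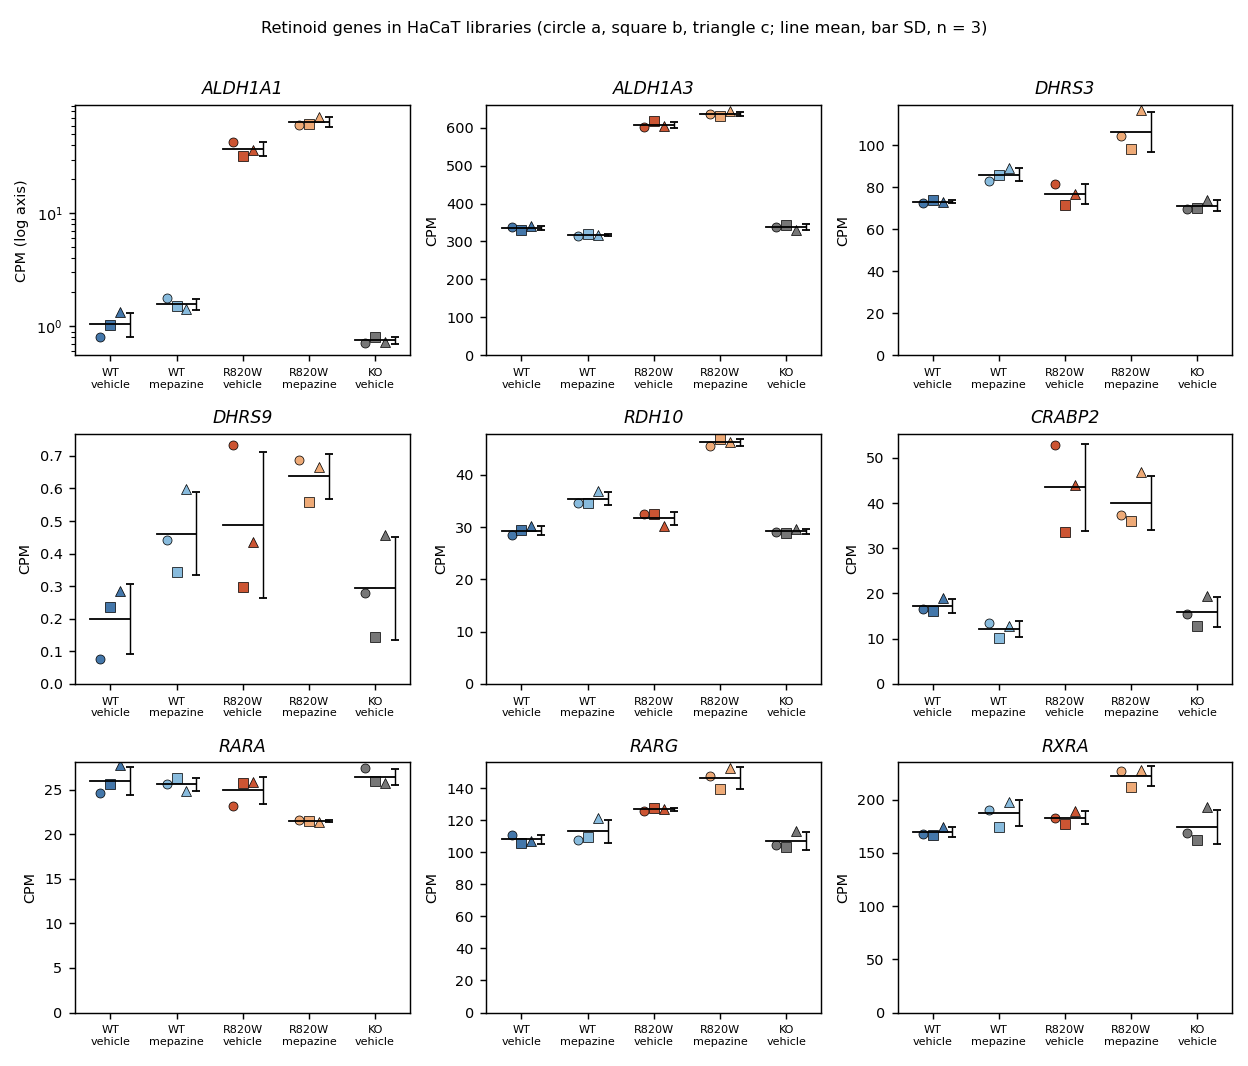
Level of each of the 9 genes in CPM (log axis for ALDH1A1, linear axes from 0 for the others) in every library, by group; circles, squares and triangles are letters a, b and c, lines are means and bars SD (n = 3). ALDH1A1 lies between 0.72 and 1.77 CPM in every WT and KO library and between 32.5 and 72.0 CPM in every R820W library.

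ALDH1A1 encodes a cytosolic aldehyde dehydrogenase that oxidises retinal to retinoic acid and is a common marker of stem-like epithelial cells. In WT cells with vehicle it stood at 0.813, 1.04 and 1.33 CPM in libraries a, b and c, from 21 to 28 counts each. In R820W cells with vehicle it stood at 42.8, 32.5 and 36.5 CPM, from 767 to 1107 counts. All R820W libraries lay far above all WT libraries, and the ratio of the group means was 35.1. The log2 difference was 5.15 (95% interval 4.85 to 5.46), at rank 10 of 14971 genes ordered from the highest in R820W to the lowest. It has no test, since ALDH1A1 was chosen for a difference between these genotypes. In bulk RNA a larger share of cells with the transcript and more transcript per cell cannot be told apart.

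With mepazine ALDH1A1 stood at 1.77, 1.50 and 1.43 CPM in WT and at 60.1, 62.2 and 72.0 CPM in R820W. The groups did not overlap, and R820W was higher by 5.35 on the log2 scale (95% interval 5.09 to 5.62), a 40.9-fold difference that has no test, since ALDH1A1 was chosen for its difference between these genotypes.

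Mepazine raised ALDH1A1 in R820W cells from 37.3 ± 5.22 to 64.8 ± 6.34 CPM, a log2 change of 0.80 ± 0.08 (adjusted p = 5.34e-08), and each treated library lay above each vehicle library. In WT cells the means were 1.06 ± 0.26 and 1.57 ± 0.181 CPM, and the treated libraries again lay above the vehicle libraries. That change, 0.59 ± 0.26 (interval 0.06 to 1.13), was not called (adjusted p = 0.103). The difference between the 2 responses was 0.20 with an interval of -0.38 to 0.78 (adjusted p = 0.754), so neither a larger nor a smaller response in R820W was shown. That difference was 0.0076 without WT vehicle c and 0.38 without WT vehicle a. KO libraries stood at 0.718, 0.813 and 0.726 CPM, from 17 to 19 counts each. The highest KO value and the lowest WT value were equal to 3 digits, and the log2 difference from WT was -0.48 ± 0.31 (interval -1.12 to 0.16, adjusted p = 0.785). It was -0.29 without WT vehicle c and -0.66 without WT vehicle a, and was called in neither case.

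ALDH1A3, the retinaldehyde dehydrogenase that is the more abundant of the pair in these cells, was high everywhere. It measured 338, 330.0 and 340.1 CPM in WT with vehicle and 601, 617 and 604 CPM in R820W with vehicle, a log2 difference of 0.85 with no test. With mepazine it measured 315, 320.5 and 317 CPM in WT and 635, 632 and 643 CPM in R820W. Under mepazine R820W was higher by 1.00 ± 0.04 (adjusted p = 9.32e-18), a 2.01-fold difference, and no WT library came near an R820W library. Mepazine changed ALDH1A3 by -0.08 ± 0.04 in WT (adjusted p = 0.105) and by 0.07 ± 0.04 in R820W (adjusted p = 0.125). Neither change was called, although the treated and untreated libraries did not overlap in either genotype. KO stood at 337 ± 7.80 CPM beside 336 ± 5.33 CPM in WT, a log2 difference of 0.00 with an interval of -0.07 to 0.08 (adjusted p = 0.994).

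Levels of different genes were compared per kilobase of the longest annotated transcript. ALDH1A1 rose from 0.503 ± 0.124 CPM per kb in WT to 17.7 ± 2.48 CPM per kb in R820W with vehicle, beside 85.6 ± 1.36 and 155 ± 2.18 CPM per kb for ALDH1A3. ALDH1A1 thus made up 0.584% ± 0.139 of the summed pair in WT with vehicle and 10.3% ± 1.40 in R820W with vehicle. With mepazine the share was 0.911% ± 0.110 in WT and 15.9% ± 1.19 in R820W, and in KO it was 0.414% ± 0.0217. ALDH1A3 remained the larger of the pair in each of the 5 groups. With the merged exons of coding transcripts as length, the shares were 0.805%, 13.6%, 1.26%, 20.7% and 0.571% in the same order. The third enzyme of the group, ALDH1A2, had at most 5 counts over the 3 libraries of any group.

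**Figure D2:**
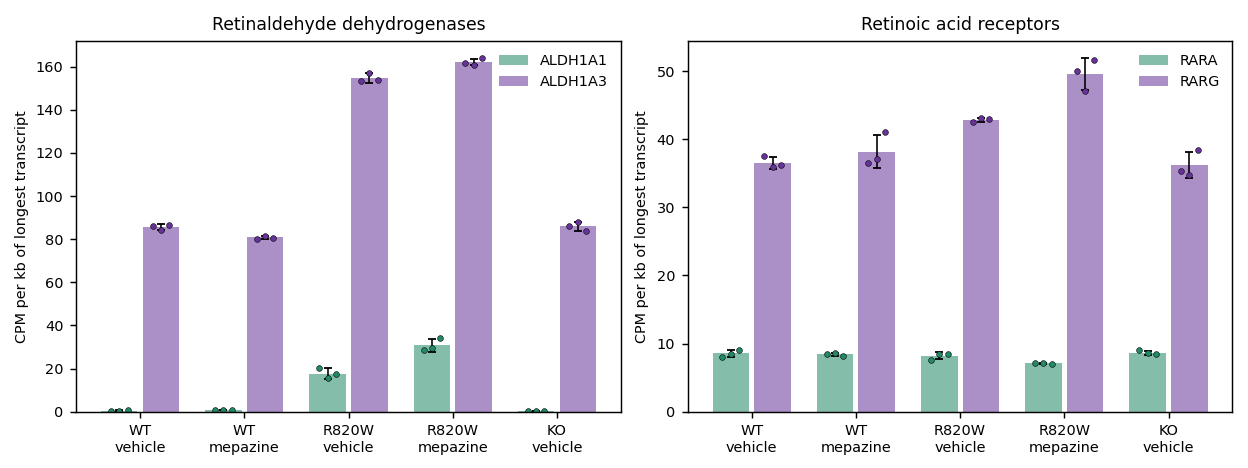
Mean level in CPM per kb of the longest transcript (bars, from 0; error bars SD, n = 3; points are libraries) for ALDH1A1 and ALDH1A3 (left) and for RARA and RARG (right) in the 5 groups. ALDH1A1 is near 0 outside the R820W groups and stays below ALDH1A3, and RARA stays below RARG, in each of the 5 groups.

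The 250 bases before the start sites of ALDH1A1, ALDH1A3 and CRABP2 are shown because these 3 genes stood farthest apart between R820W and WT among the 8 of the 9 with at least 10 counts in every library. They are RefSeq windows on GRCh38.p14, written 5′ to 3′ on the gene's strand. The counts were made on hg19, so the windows carry no measured value. Capitals mark a CCAAT box, the letters CCAAT on either strand. The windows are chr9:72953054-72953303 (minus strand) for ALDH1A1, chr15:100879581-100879830 (plus strand) for ALDH1A3 and chr1:156705785-156706034 (minus strand) for CRABP2.
ALDH1A1: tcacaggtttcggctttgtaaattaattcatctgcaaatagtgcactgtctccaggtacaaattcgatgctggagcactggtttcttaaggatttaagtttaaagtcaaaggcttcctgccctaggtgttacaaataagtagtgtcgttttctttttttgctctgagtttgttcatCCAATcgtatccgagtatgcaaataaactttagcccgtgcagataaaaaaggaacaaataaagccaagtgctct
ALDH1A3: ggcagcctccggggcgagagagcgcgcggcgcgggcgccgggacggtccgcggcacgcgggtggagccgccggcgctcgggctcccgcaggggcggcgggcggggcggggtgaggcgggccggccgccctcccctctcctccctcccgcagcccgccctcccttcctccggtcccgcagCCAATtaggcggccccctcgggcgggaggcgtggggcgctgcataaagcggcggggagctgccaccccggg
CRABP2: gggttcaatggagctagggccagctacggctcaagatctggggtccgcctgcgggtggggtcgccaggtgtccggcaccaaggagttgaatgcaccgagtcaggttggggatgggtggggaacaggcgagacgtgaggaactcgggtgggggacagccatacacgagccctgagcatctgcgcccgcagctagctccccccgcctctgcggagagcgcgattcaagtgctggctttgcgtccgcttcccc
Counted back from the start site, the CCAAT box lies at -74 to -70 in the ALDH1A1 window and at -71 to -67 in the ALDH1A3 window, and the CRABP2 window holds none. A CCAAT box is a common promoter element, and 32.0% of 35116 human windows of the same length hold one. The retinoid half-sites AGGTCA and AGTTCA, the E-box CACGTG, the AP-1 letters TGANTCA and the TATA letters TATAAA, searched on both strands, were not in these 3 windows. They occur in 12.1%, 8.80%, 6.34%, 6.57% and 10.7% of all windows.

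Neighbouring genes of ALDH1A1 on chromosome 9 were read for comparison. ZFAND5 stood at 156 ± 4.20 CPM in WT and 174 ± 1.20 CPM in R820W with vehicle, and ANXA1, on the other side, at 584 ± 12.9 and 476 ± 10.9 CPM. Under mepazine ZFAND5 was higher in R820W by 0.12 (adjusted p = 0.035), a call lost without WT mepazine a or b or R820W mepazine b or c (0.09 to 0.12, adjusted p = 0.0805 to 0.16), and ANXA1 was lower (log2 difference -0.19, adjusted p = 6.78e-04). TMC1, nearer than ZFAND5 on its side, and RORB, beyond ANXA1, had at most 16 and 3 counts over the 3 libraries of a group and were not tested.

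RDH10 catalyses the first step of the pathway, the oxidation of retinol to retinal. It measured 28.5, 29.4 and 30.2 CPM in WT with vehicle and 34.7, 34.7 and 36.9 CPM in WT with mepazine. In R820W it measured 32.4, 32.4 and 30.2 CPM with vehicle and 45.5, 46.9 and 46.3 CPM with mepazine. The 3 treated R820W libraries were the highest of all 15. Mepazine raised RDH10 by 0.27 ± 0.05 in WT (adjusted p = 3.95e-04) and by 0.54 ± 0.05 in R820W (adjusted p = 2.27e-09). The response in R820W exceeded that in WT by 0.27 ± 0.07 (adjusted p = 0.0344). Leaving out any 1 of 7 libraries (WT vehicle b or c, WT mepazine a or b, R820W vehicle b or c, R820W mepazine c) ended that call, with values of 0.24 to 0.29 and adjusted p of 0.0643 to 0.111. Under mepazine RDH10 was higher in R820W than in WT by 0.38 ± 0.05 (adjusted p = 6.50e-07). Under vehicle the difference was 0.11 and the libraries overlapped. KO libraries, at 29.2 ± 0.416 CPM, differed from WT by -0.01 (interval -0.12 to 0.10, adjusted p = 0.994).

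DHRS3 encodes a retinal reductase that returns retinal to retinol. It measured 72.3, 73.9 and 73.0 CPM in WT with vehicle and 83.0, 85.9 and 88.9 CPM in WT with mepazine. In R820W it measured 81.3, 71.6 and 76.9 CPM with vehicle and 104, 98.1 and 117 CPM with mepazine. As for RDH10, the treated R820W libraries were the highest 3 of the 15. Mepazine raised DHRS3 by 0.23 ± 0.05 in WT (adjusted p = 0.0024) and by 0.47 ± 0.05 in R820W (adjusted p = 6.70e-08). The difference between the responses, 0.24 ± 0.08 (interval 0.08 to 0.40), was not called (adjusted p = 0.0787). It was called in 4 of 22 alternative settings. Among them were the fits without R820W vehicle a (0.29, adjusted p = 0.047), without R820W mepazine b (0.29, adjusted p = 0.0137) and without the filter on low counts (0.23, adjusted p = 0.0408). Under mepazine R820W was higher than WT by 0.31 ± 0.05 (adjusted p = 3.41e-05), and under vehicle the difference was 0.07 with overlapping libraries. KO stood at 71.2 ± 2.43 CPM, and its difference from WT was -0.04 (interval -0.15 to 0.08, adjusted p = 0.931).

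RDH10 and DHRS3, which run the same reaction in opposite directions, kept a similar ratio. The ratio of RDH10 to DHRS3 CPM was 0.402 ± 0.0103 in WT with vehicle, 0.412 ± 0.00755 in WT with mepazine and 0.410 ± 0.00933 in KO. The R820W ratio was 0.415 ± 0.0332 with vehicle and 0.437 ± 0.0401 with mepazine. The ranges overlapped between all 5 groups. Among 3 annotated start sites of DHRS3, the window chr1:12596614-12596863 (minus strand, GRCh38.p14) is shown because it holds motifs that were searched. They are the retinoid half-site AGGTCA on the opposite strand at -171 to -166 and the AP-1 letters at -85 to -79, both in capitals here.
DHRS3: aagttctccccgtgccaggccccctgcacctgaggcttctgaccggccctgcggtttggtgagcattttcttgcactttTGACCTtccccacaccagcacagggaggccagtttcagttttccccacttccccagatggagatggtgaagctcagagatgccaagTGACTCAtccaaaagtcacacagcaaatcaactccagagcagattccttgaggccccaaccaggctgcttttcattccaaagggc
The windows of the other 2 DHRS3 start sites held none of the 6 motifs searched. These motifs were not particular to DHRS3 among the genes searched, which did not include RDH10. AGGTCA also lies in a RARA window at -230 to -225. The half-site AGTTCA lies in a DHRS9 window at -218 to -213, and the AP-1 letters in another DHRS9 window at -48 to -42.

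DHRS9, a retinol dehydrogenase of differentiating epithelium, was close to the limit of detection. It had 2 to 19 counts per library, and 8 of the 15 libraries reached 10 counts. The group means ran from 0.199 ± 0.109 CPM in WT with vehicle to 0.637 ± 0.0692 CPM in R820W with mepazine, and each neighbouring pair of groups in that order overlapped. A library with 3 counts corresponds to 0.108 to 0.143 CPM. The 2.53-fold higher fitted level in R820W than in WT with vehicle has no test and rests on 36 counts against 13. Mepazine changed DHRS9 by 1.23 ± 0.49 in WT (interval 0.22 to 2.25, adjusted p = 0.0713), and no tested comparison called it.

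CRABP2 delivers retinoic acid to the nuclear receptors and is the epidermal member of the carrier pair. It measured 16.5, 16.1 and 18.9 CPM in WT with vehicle and 52.9, 33.6 and 44.0 CPM in R820W with vehicle. The groups did not overlap, and the log2 difference of 1.35 has no test. With mepazine it measured 13.4, 10.1 and 12.9 CPM in WT and 37.3, 36.0 and 46.8 CPM in R820W. Under mepazine R820W was higher by 1.72 ± 0.21 (adjusted p = 5.10e-05), a 3.30-fold difference. Mepazine changed CRABP2 by -0.49 ± 0.23 in WT (interval -0.999 to 0.0094, adjusted p = 0.149) and by -0.12 ± 0.18 in R820W (interval -0.52 to 0.28, adjusted p = 0.619). In WT the treated libraries lay below the untreated ones without overlap. The change was called in 3 of 22 alternative settings, among them DESeq2 (adjusted p = 0.043) and the fit of only the groups compared (adjusted p = 1.69e-04). In R820W they overlapped. KO stood at 15.9 ± 3.34 CPM, and its difference from WT was -0.09 (interval -0.58 to 0.39, adjusted p = 0.96). CRABP1, the other carrier, had at most 1 count over the 3 libraries of any group.

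The spread of CRABP2 was wide for its level. Its lowest library was letter b in each of the 5 groups, and the same held for RXRA. DHRS9 was lowest in letter b in 4 of 5 groups, whereas RARA was lowest in letter b in 0 of 5. This pattern was noticed after the values were seen, and what the letters stand for is not given in the labels.

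RARG, the main retinoic acid receptor of epidermis, measured 111, 106 and 107 CPM in WT with vehicle and 126, 127 and 127 CPM in R820W with vehicle. With mepazine it measured 108, 109.9 and 121 CPM in WT and 148, 139 and 153 CPM in R820W. All 6 R820W libraries lay above all 9 WT and KO libraries. Mepazine raised RARG by 0.21 ± 0.05 in R820W (adjusted p = 5.88e-04), and in WT its change was 0.06 ± 0.05 (interval -0.04 to 0.16, adjusted p = 0.382). Under mepazine R820W was higher by 0.38 ± 0.05 (adjusted p = 3.78e-07), and under vehicle by 0.23 with no test. The difference between the responses to mepazine, 0.15, was not called (adjusted p = 0.22).

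RARA, the widely expressed retinoic acid receptor, went the other way in R820W cells with mepazine. It measured 24.6, 25.7 and 27.7 CPM in WT with vehicle and 23.2, 25.7 and 25.9 CPM in R820W with vehicle, and these groups overlapped. With mepazine it measured 25.7, 26.3 and 24.9 CPM in WT and 21.7, 21.5 and 21.4 CPM in R820W. The 3 treated R820W libraries were the lowest of the 15. Mepazine lowered RARA in R820W (log2 change -0.21 ± 0.06, adjusted p = 0.00622), and in WT the change was -0.02 (interval -0.14 to 0.11, adjusted p = 0.864). Under mepazine the difference between R820W and WT was -0.25 ± 0.06 (adjusted p = 0.00146). The difference between the responses was -0.19 (interval -0.37 to -0.01) and was not called after adjustment (adjusted p = 0.213).

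Per kilobase of longest transcript, RARG was the higher of the pair in each group, at 36.5 ± 0.870 CPM per kb beside 8.55 ± 0.526 CPM per kb for RARA in WT with vehicle. The ratio of RARA to RARG CPM was 0.241 ± 0.0187 in WT with vehicle, 0.228 ± 0.0195 in WT with mepazine and 0.247 ± 0.0181 in KO. In R820W it was 0.197 ± 0.0106 with vehicle and 0.147 ± 0.00727 with mepazine. The treated R820W libraries had the lowest 3 ratios of all 15, from 0.14 to 0.155.

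RXRA, the partner receptor of the heterodimer, measured 167, 166 and 174 CPM in WT with vehicle and 183, 177 and 189.6 CPM in R820W with vehicle. With mepazine it measured 190.4, 174 and 197 CPM in WT and 227, 212 and 227 CPM in R820W. The treated R820W libraries were again the highest 3 of the 15. Mepazine raised RXRA by 0.28 ± 0.05 in R820W (adjusted p = 1.74e-04), and in WT the change was 0.15 ± 0.06 (interval 0.03 to 0.26, adjusted p = 0.0585). That WT change was called in 6 of 22 alternative settings. Under mepazine R820W was higher by 0.25 ± 0.05 (adjusted p = 6.74e-04), and under vehicle by 0.11 with no test. KO, at 174 ± 16.2 CPM, differed from WT by 0.04 (interval -0.07 to 0.16, adjusted p = 0.913).

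**Figure D3:**
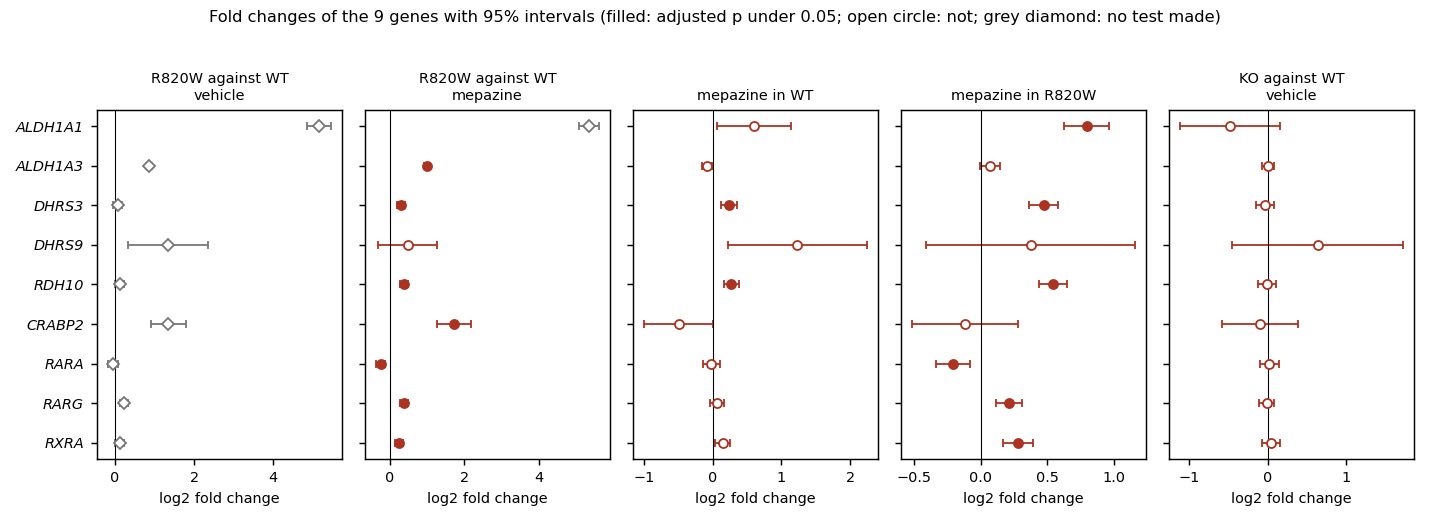
Log2 fold change of the 9 genes in 5 comparisons with 95% intervals from the fit of all 15 libraries (filled circles, adjusted p under 0.05; open circles, not; grey diamonds, no test made, which includes ALDH1A1 in both R820W against WT comparisons). In the R820W against WT comparisons the ALDH1A1 points, at 5.15 and 5.35, lie far to the right of the other 8 genes, and the KO column has no filled point.

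As a set, the 9 genes can be read against all genes tested. Between KO and WT with vehicle 0 of 9 were called by edgeR's quasi-likelihood test, beside 0.374% of all genes (0.287% higher, 0.0868% lower). None of the 9 had an unadjusted p under 0.05, and DESeq2 and limma-voom also called 0. The median of the 9 log2 differences was -0.01, beside 0.00 over all genes. With mepazine in WT cells 2 of 9 were called, both higher, beside 24.0% of all genes (12.4% higher, 11.6% lower), so the count was near the background. The median was 0.15, beside 0.02. With mepazine in R820W cells 6 of 9 were called, beside 46.8%, with 5 higher (22.1% of all genes) and 1 lower (24.8%), and a median of 0.28 beside 0.02. Between R820W and WT with mepazine 7 of the 8 other than ALDH1A1 were called, beside 44.9%, with 6 higher (19.4%) and 1 lower (25.4%), and a median of 0.38 beside -0.01. The difference between the mepazine responses was called for 1 of 9, RDH10, beside 3.85% (0.788% higher, 3.07% lower). Between R820W and WT with vehicle 19.2% of all genes were called (10.6% higher, 8.61% lower), and no count of the 9 is read from that comparison. These comparisons share libraries. The vehicle groups of WT and R820W serve in the mepazine comparisons, and WT with vehicle also serves against KO. R820W and WT libraries also led to the choice of ALDH1A1, and whether those with mepazine entered it is not recorded.

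The rest of the pathway was read from 6 lists of 85 names, of which 82 had a row in the table and 52 passed the filter on low counts. The lists, like the 9 genes, were drawn up with earlier results of these data known. Under mepazine 21 of the 52 were higher in R820W than in WT and 9 were lower, beside 19.4% and 25.4% of all genes, with a median log2 difference of 0.16 beside -0.01. Mepazine raised 21 and lowered 9 in R820W cells, beside 22.1% and 24.8% of all genes (median 0.14 beside 0.02). It raised 11 and lowered 5 in WT cells, beside 12.4% and 11.6% (median 0.03 beside 0.02). Between KO and WT 1 was higher, TGM2, and 0 were lower, beside 0.287% and 0.0868%.

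**Figure D4:**
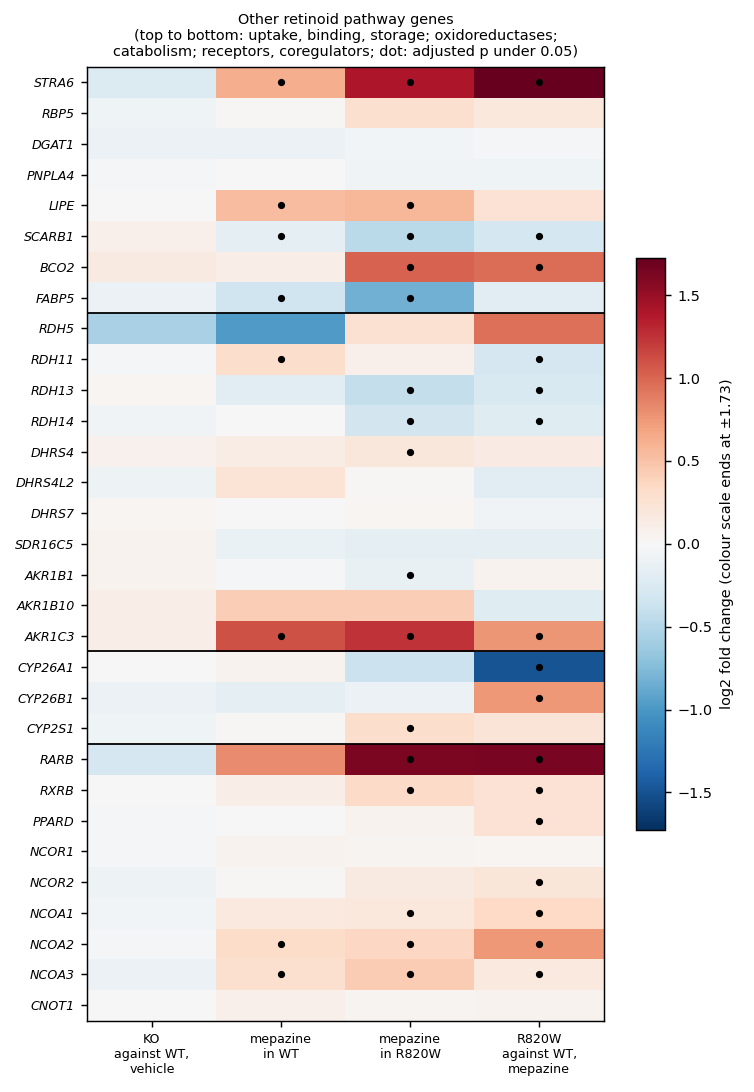
Log2 fold change (colour, scale ends at ±1.73) of 31 genes that passed the filter, from 4 of the 6 lists (uptake, binding and storage; oxidoreductases; catabolism; receptors and coregulators), in 4 comparisons; a dot marks an adjusted p under 0.05. The lists of genes induced or repressed by retinoic acid are not drawn. Among the genes drawn, STRA6 and RARB have the strongest red cells and CYP26A1 the strongest blue cell, and the KO column has no dot.

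Of the genes for uptake, binding and storage, STRA6, the cell-surface receptor that takes up retinol, changed most. It averaged 3.50 CPM in WT and 6.80 CPM in R820W with vehicle, and 5.45 and 17.9 CPM with mepazine. Mepazine raised it by 0.63 ± 0.13 in WT (adjusted p = 9.06e-04) and by 1.40 ± 0.11 in R820W (adjusted p = 5.54e-11), and under mepazine R820W was higher by 1.73 ± 0.11 (adjusted p = 1.03e-12). LIPE, a lipase that can act on retinyl esters, rose with mepazine by 0.53 in WT (adjusted p = 0.00174) and by 0.57 in R820W (adjusted p = 1.87e-04). FABP5, a fatty-acid carrier that can also bind retinoic acid, fell with mepazine by 0.83 on the log2 scale in R820W (adjusted p = 2.27e-06). In WT the log2 change of FABP5 was -0.35 (adjusted p = 0.0362), a call lost in 5 of 22 alternative settings. Of the 8 tested genes of this list, 3 rose and 2 fell with mepazine in R820W, beside 22.1% and 24.8% of all genes. LRAT, which esterifies retinol for storage, had at most 21 counts over the 3 libraries of any group and was not tested.

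Of 11 further tested oxidoreductases, 2 were higher and 0 lower with mepazine in WT, beside 12.4% and 11.6% of all genes, and 2 were higher and 3 lower in R820W, beside 22.1% and 24.8%. These counts were near the background. AKR1C3, an aldo-keto reductase with retinal among its substrates, rose by 1.09 ± 0.14 in WT (adjusted p = 1.99e-06) and by 1.25 ± 0.12 in R820W (adjusted p = 7.83e-09). Its reads may be shared with near-identical AKR1C genes. RDH11, a retinal reductase, averaged 126 CPM in WT with vehicle and 155 CPM with mepazine, a rise of 0.30 ± 0.05 (adjusted p = 2.15e-05), beside 119.6 and 127 CPM in R820W (0.08, adjusted p = 0.147). Mepazine lowered RDH13 in R820W (log2 change -0.42 ± 0.08, adjusted p = 9.47e-05) and RDH14 (log2 change -0.32 ± 0.07, adjusted p = 2.12e-04). Between R820W and WT under mepazine 1 of the 11, AKR1C3, was higher and 3 were lower, beside 19.4% and 25.4% of all genes (median -0.16 beside -0.01). The 3 were RDH11 (log2 difference -0.29, adjusted p = 9.21e-06), RDH13 (-0.26, adjusted p = 0.00896) and RDH14 (-0.21, adjusted p = 0.00998). RDH14 lost that call without R820W mepazine a (-0.17, adjusted p = 0.067).

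Of the retinoic acid hydroxylases, CYP26B1 averaged 8.82 CPM in WT and 14.3 CPM in R820W with vehicle. Under mepazine it averaged 7.86 and 13.3 CPM, higher in R820W by 0.75 ± 0.10 (adjusted p = 4.97e-07). CYP26A1 ran the other way at low level, with 1.01 CPM in WT and 0.343 CPM in R820W under mepazine (log2 difference -1.49 ± 0.37, adjusted p = 0.00198). Mepazine itself gave no call for either gene in either genotype.

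Among receptors and coregulators, 7 of 9 tested genes were higher in R820W than in WT under mepazine and 0 were lower, beside 19.4% and 25.4% of all genes. RARB, a further retinoic acid receptor gene, had 6 to 9 counts per library in WT with vehicle and 40 to 56 in R820W with mepazine. Its means were 0.337 and 0.607 CPM in WT, and 0.609 and 1.88 CPM in R820W, without and with mepazine. It rose with mepazine in R820W by 1.62 ± 0.29 (adjusted p = 4.06e-05), and in WT its change of 0.82 was not called (adjusted p = 0.117). The coactivator NCOA2 was higher in R820W under mepazine by 0.75 ± 0.07 (adjusted p = 1.09e-09) and NCOA1 by 0.35 ± 0.06 (adjusted p = 3.06e-05). NCOA3 rose with mepazine in both genotypes, by 0.44 in R820W (adjusted p = 4.62e-08) and 0.28 in WT (adjusted p = 1.19e-04).

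Genes reported as induced by retinoic acid in keratinocytes or other cells did not move one way. Of 14 tested, 8 were higher and 4 lower in R820W than in WT under mepazine, beside 19.4% and 25.4% of all genes (median 0.30 beside -0.01). Mepazine raised 6 and lowered 4 in R820W, beside 22.1% and 24.8%. LCN2, which encodes lipocalin 2, was higher in R820W under mepazine by 2.21 ± 0.13 (adjusted p = 1.89e-08) and TNFAIP2 by 1.50 ± 0.08 (adjusted p = 2.62e-09). Both are also known targets of NF-kB signalling. In the same comparison KRT7 was higher by 0.41 ± 0.04 (adjusted p = 8.21e-09), and RAI14 was lower (log2 difference -0.59 ± 0.06, adjusted p = 2.66e-09). The keratins KRT4, KRT13, KRT15 and KRT19 were also among the 8 higher, with log2 differences of 1.43, 1.04, 0.93 and 0.19. Their adjusted p-values were 1.14e-05, 4.30e-04, 0.0062 and 0.0271. HBEGF fell with mepazine in WT (log2 change -0.68 ± 0.07, adjusted p = 5.88e-08) and in R820W (-0.83 ± 0.08, adjusted p = 1.90e-09). The simple-epithelial keratins KRT8 and KRT18 fell with mepazine in WT (log2 changes -0.48 and -0.56, adjusted p = 5.02e-10 and 1.78e-10) and in R820W (-0.46 and -0.62, adjusted p = 3.50e-10 and 1.01e-11). TGM2, tissue transglutaminase, was higher in KO than in WT by 1.25 ± 0.15 (adjusted p = 3.56e-05), at 6.01 beside 2.51 CPM. Of 7 tested genes that retinoic acid is known to repress in keratinocytes, 4 were higher with mepazine in R820W and 0 lower, beside 22.1% and 24.8% of all genes. IVL, the cornified envelope precursor involucrin, rose by 0.72 in WT (adjusted p = 3.73e-06) and by 1.08 in R820W (adjusted p = 5.23e-11), and TGM1, a cross-linking enzyme of the envelope, rose by 0.51 in R820W (adjusted p = 0.00247).

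The genes most like each of the 9 across the 5 groups were found by the root mean square difference of centred log2 group means. CCDC88C (0.381) and MME (0.516) were nearest to ALDH1A1, followed by a symbol without annotation and by TRIM31 (0.713) and B3GALT5 (0.744). CCDC88C averaged 0.175 CPM in WT and 23.7 CPM in R820W with vehicle, and MME 0.428 and 13.3 CPM. LYPD2 (0.0332), SAMD9 and EMC10 were nearest to ALDH1A3, and KRT4 (0.0865), IL1R1 and CYP2W1 to CRABP2. LPIN3 (0.0169), TBCK and TSSK3 were nearest to DHRS3, and CYP1B1 (0.0219) and RRNAD1 to RDH10 after a symbol without annotation. For DHRS9 they were IL4I1 (0.0297), NOS1AP and USP27X. RARA, RARG and RXRA spanned less than 0.5 between group means on that scale and were not searched.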

How the data were processed

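RNA-seq was done on 15 HaCaT libraries, 3 in each of 5 groups taken from the labels. The authors deposited read counts, whole numbers by gene symbol without normalisation. Per the labels' protocols, total RNA libraries were made with a directional kit. FastQC, MACS2, DESeq2 and the hg19 build are named in the submitters' processing notes, with no role or version. Aligner, counter, annotation and strandedness were not given in the sources used, and reads of antisense, overlapping or near-identical genes may therefore be shared.

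The 9 genes, the lists and the tests were chosen with earlier results of these data known. The table held 28518 symbols, 5618 with 0 counts everywhere. After filterByExpr (minimum count 10) 14971 were tested, all 9 among them. Scaling used trimmed means of M values and CPM were taken on the scaled library sizes. Tests were edgeR 4.0.16 quasi-likelihood (robust, all 15 libraries, group as the only term) in R 4.3.3, at an adjusted p of 0.05. SE is the log2 fold change divided by the square root of the test's F, and 95% intervals use the test's degrees of freedom. The fit was tested on simulated data. Median shifts of all genes were under 0.03 on the log2 scale.

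Other genes qualified for naming, per list and comparison, when called with at least 1 CPM in the higher group, up to 4 by adjusted p. Not every gene that qualified is named, and some less stable ones appear only in the closing section. KRT4, KRT13, KRT15 and KRT19 are named beyond this rule under mepazine, and are not among the other genes recomputed below. Likeness used log2(CPM + 0.5) and genes of at least 1 CPM in their highest group. Fibroblast and other markers are beside the results. Per-kilobase levels used human annotation lengths, which may differ from the annotation behind the counts. Promoter windows were matched by symbol to RefSeq on GRCh38.p14, and neighbour order came from the same build.

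Counts of replicate pairs differed beyond sampling noise (chi-square per gene 3.31 to 14.8). No label ties libraries to cultures, so p-values measure the spread between these samples, which may be technical. Floors of 3 counts cover counting error only. Alternatives were DESeq2 1.42.0, limma-voom 3.58.1, DESeq2 size factors, other filters, fits of the groups compared, a replicate block, and leaving out each library.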

Additional observations from a re-analysis of the deposited data

Results flagged for a closer look

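The response to mepazine differed between R820W and WT cells, by the test of that difference in edgeR, for the 4 genes below. They are listed because they were called. Their number is therefore not read against the 3.85% of all genes tested that were called. STRA6, the retinol uptake receptor, responded more in R820W, by 0.76 ± 0.17 on the log2 scale (adjusted p = 0.0142). RDH10 responded more in R820W, by 0.27 ± 0.07 (adjusted p = 0.0344). SCARB1, a scavenger receptor that also takes up carotenoids, responded in the lower direction, with a log2 difference of -0.30 ± 0.08 (adjusted p = 0.0373), and averaged 48.9 and 43.5 CPM in WT and 49.1 and 35.5 CPM in R820W, without and with mepazine. ALDH1B1, a mitochondrial aldehyde dehydrogenase, did likewise, with a log2 difference of -0.31 ± 0.09 (adjusted p = 0.0439) and means of 33.9 and 28.0 CPM in WT and 30.3 and 20.2 CPM in R820W. The calls rest on few libraries. STRA6 lost its call without WT mepazine b (0.71, adjusted p = 0.0553) or R820W vehicle b (0.65, adjusted p = 0.0596). SCARB1 lost its call in 10 of 22 alternative settings, ALDH1B1 in 13 and RDH10 in 8, without a change of direction. Among the cell type markers, 3 of 10 for keratinocytes were called in this difference of responses, beside 0.788% of all genes higher: KRT17 (0.41, adjusted p = 8.37e-04), ITGB4 (0.30, adjusted p = 0.0129) and COL17A1 (0.21, adjusted p = 0.0442). The fibroblast markers COL1A1, LUM and DCN differed by 0.51 ± 0.28, 0.99 ± 0.59 and 1.04 ± 0.62 (adjusted p = 0.321 to 0.389) and the endothelial CDH5 by 0.60 ± 0.30 (adjusted p = 0.297), with no call. The part of these markers in the 4 calls was not tested.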

How the results depend on the processing

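Of 959 recomputed member values with a test, 916 kept their direction and their side of the threshold; 8 lost a call (all RDH10, difference of responses), 18 gained one and 17 changed sign, none of these 17 a called value. Of values given with no test, 218 of 218 moved by less than the spread between libraries. The letters were not taken as pairing the libraries, because deviations of same-letter libraries correlated at -0.03 to 0.177, with 3 of 15 pairs over 0.1. The same letter was the best match in 10 of 15, including all 3 letters for mepazine in WT and for R820W against WT with mepazine, which is a hint from the data and not from the design. With the replicate block, all genes called numbered 103 in place of 56 between KO and WT and 1401 in place of 577 for the difference of responses, and members called numbered 4 in place of 2 for mepazine in WT and 3 in place of 1 for the difference of responses. DESeq2 called 4 members for mepazine in WT and 2 for the difference of responses, and the fit of only the groups compared called 5 for mepazine in WT. Without a filter the difference of responses had 894 genes, and RDH10 lost its call there (0.26, adjusted p = 0.0558). Leaving out 1 library gave 22 to 63 genes between KO and WT (22 without KO a, 33 without WT vehicle b, 35 without WT vehicle c) and 137 to 1362 for the difference of responses (137 without R820W vehicle b, 159 without WT mepazine b, 1362 without R820W mepazine b), with 0 to 2 members there and 2 to 3 for mepazine in WT. Uncalled member values that changed sign ranged, KO against WT, from -0.0117 to 0.0224 (ALDH1A3), -0.267 to 0.0301 (CRABP2), -0.0156 to 0.0714 (RARA), -0.0577 to 0.0125 (RARG), -0.0286 to 0.0124 (RDH10) and -0.0357 to 0.0917 (RXRA), for RARA with mepazine in WT from -0.0587 to 0.0304, and for CRABP2 with mepazine in R820W from -0.278 to 0.0346 (0.0346 without R820W vehicle a). Gained calls were ALDH1A3, CRABP2 and RXRA for mepazine in WT and ALDH1A3 and DHRS3 for the difference of responses (with the block 0.15, adjusted p = 0.0392, and 0.24, adjusted p = 0.0187). Of 1914 values of other genes that were named or qualified for naming, 77 lost a call and 0 changed sign. The causes were not tested. DHRS9 had no value in some settings.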

Other observations

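Other aldehyde dehydrogenases also differed by genotype. Of 13 tested relatives of the ALDH1A enzymes, 8 were higher and 3 lower in R820W than in WT under mepazine, beside 19.4% and 25.4% of all genes. Between KO and WT 0 were called, beside 0.374% of all genes, so that count was near the background. ALDH2, the mitochondrial enzyme that clears acetaldehyde, averaged 9.82 and 11.4 CPM in WT and 30.1 and 36.1 CPM in R820W, without and with mepazine, and was higher in R820W under mepazine by 1.66 ± 0.08 (adjusted p = 1.07e-15). ALDH3B1, a membrane-bound enzyme for lipid aldehydes, averaged 8.66 and 17.7 CPM in WT and 21.1 and 51.1 CPM in R820W. It rose with mepazine by 1.03 ± 0.15 in WT (adjusted p = 3.01e-04) and by 1.28 ± 0.12 in R820W (adjusted p = 1.70e-06). ALDH18A1, an enzyme of proline synthesis, fell with mepazine in R820W (log2 change -0.33 ± 0.04, adjusted p = 4.88e-07) and in WT (-0.19 ± 0.04, adjusted p = 0.0017). ALDH7A1, an enzyme of lysine breakdown, rose in R820W (0.39 ± 0.05, adjusted p = 2.74e-07) and in WT (0.20 ± 0.05, adjusted p = 0.0048). The difference between the responses was called for neither gene (adjusted p = 0.18 and 0.11).

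Of 10 tested short-chain dehydrogenases of the DHRS group other than DHRS3 and DHRS9, 3 were higher and 0 lower in R820W than in WT under mepazine, beside 19.4% and 25.4% of all genes. DHRS1 averaged 13.2 and 15.8 CPM in WT and 17.1 and 22.4 CPM in R820W, without and with mepazine, and was higher in R820W under mepazine by 0.51 ± 0.09 (adjusted p = 2.30e-05). DHRS2 averaged 0.755 and 0.92 CPM in WT and 2.30 and 2.44 CPM in R820W, a difference under mepazine of 1.41 ± 0.32 (adjusted p = 9.17e-04). DHRS12, the other of the 3, was higher by 0.74 ± 0.26 (adjusted p = 0.0208) and lost that call in 5 of 22 alternative settings (adjusted p up to 0.102).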
